A study of Mus musculus with 21 samples.

Results

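The general macrophage identity genes described here are Adgre1, Csf1r, Cd68, Mpeg1, Aif1, Lyz2 and Laptm5, 7 genes chosen by gene symbol. Each was read by 1 probe that the platform annotation gives to that gene alone, so all 7 members were measured, out of 16248 genes in the table used. Expression was measured with GeneChip whole-transcript arrays in epididymal fat, a visceral depot attached to the epididymis. The mice were C57BL/6J males, 4 weeks old on arrival and singly housed, that took their diets for 12 weeks after a 1-week run-in on chow. There were 21 arrays, 3 for each of 7 groups. BC mice ate a high-fat diet, with 40% of energy from fat, that carried 0.3% by weight of Bacillus coagulans, a probiotic bacterium that forms spores. RMG mice are labelled with the high-fat diet, but the feeding protocol does not describe this group, so its supplement is unknown here. SMG mice ate the high-fat diet with 0.3% steamed grain, L_FMG mice with 0.3% and H_FMG mice with 0.9% fermented mixed grain. HFD mice ate the high-fat diet alone, and ND mice a normal diet in which fat gave 10% of the energy. Arrays are named by group and by the number in their title. The labels do not say that each array came from a separate mouse, so p-values measure only the spread between these arrays, which may be technical.

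Macrophages are phagocytes that live in every tissue and, in fat, clear lipid and dying adipocytes, and their number in visceral fat is known to grow in obesity. Adgre1 encodes the surface receptor by which mouse macrophages are commonly recognised, and Csf1r encodes the receptor for the growth factors CSF1 and IL-34, on which macrophages depend for survival. Cd68 encodes a glycoprotein and Laptm5 a transmembrane protein of endosomes and lysosomes, Lyz2 the secreted antibacterial enzyme lysozyme, Mpeg1 the pore-forming protein perforin-2, and Aif1 the calcium- and actin-binding protein IBA1. Lyz2 and Laptm5 are also used by other leukocytes. PU.1, the product of Spi1, is the transcription factor that defines the lineage, and its purine-rich site is known from promoters of myeloid genes.

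Promoter windows of 250 bases before a start of transcription were at hand for 5 of the 7 members (RefSeq, GRCm38.p6). The 3 below are shown because they belong to the member with the largest diet difference (Cd68), to another with a large one (Mpeg1) and to the one with the smallest (Aif1). Capitals mark GAGGAA, the core of the PU.1 site, or its reverse complement TTCCTC, and bases are given 5′ to 3′ along the gene.
Cd68 promoter, chr11:69666171-69666420, minus strand: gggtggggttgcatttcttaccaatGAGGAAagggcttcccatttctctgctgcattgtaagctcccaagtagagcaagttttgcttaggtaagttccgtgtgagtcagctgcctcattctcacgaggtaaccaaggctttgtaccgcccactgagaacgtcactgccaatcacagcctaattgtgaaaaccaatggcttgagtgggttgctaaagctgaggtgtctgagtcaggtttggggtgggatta
Mpeg1 promoter, chr19:12460520-12460769, plus strand: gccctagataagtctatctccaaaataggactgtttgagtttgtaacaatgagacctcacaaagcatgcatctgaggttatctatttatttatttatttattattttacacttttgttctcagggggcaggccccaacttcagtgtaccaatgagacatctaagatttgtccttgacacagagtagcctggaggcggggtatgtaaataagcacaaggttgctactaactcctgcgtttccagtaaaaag
Aif1 promoter, chr17:35176053-35176302, minus strand: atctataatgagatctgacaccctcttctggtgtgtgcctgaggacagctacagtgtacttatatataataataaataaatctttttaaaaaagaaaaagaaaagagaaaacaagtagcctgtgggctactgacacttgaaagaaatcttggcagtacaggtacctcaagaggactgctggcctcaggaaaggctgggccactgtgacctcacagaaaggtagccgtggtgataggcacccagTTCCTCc
The letters GAGGAA were present on either strand in 3 of the 5 windows (Cd68, Laptm5 and Aif1), and in 23.3% of the 32851 windows of the same length in the table. In Cd68 the match lay at bases -225 to -220 from the start, in Aif1 at -7 to -2. Positions count from the start used for the window. The gene annotation used for the probes begins Aif1 at chr17:35176083, within its window, and Laptm5 at chr4:130912890, ahead of its window. By that annotation the Aif1 and Laptm5 matches lay inside the gene. TGANTCA, the AP-1 motif, was present in 1 of the 5 windows, that of Cd68, with 2 matches at -149 to -143 and -24 to -18, against 6.75% of all windows. CANGTG, which holds the MITF motif, was present in 2 of 5 (39.5% of all windows), and TGTGGT, the RUNX motif, in 1 of 5 (14% of all windows), searched on both strands. These are matches of letters and not evidence of binding. The Mpeg1 window held none of these motifs and the Aif1 window held 2.

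The median of an array lay between 4.23 and 4.39 log2 units, and 0 pairs of arrays were identical. The 8 measured adipocyte markers of 14 listed averaged between 8.88 and 9.74 log2 units over the 21 arrays, while the 7 measured markers of epididymis duct and sperm averaged between 3.428 and 4.005. In the macrophage genes 5 arrays lay on one side of both others of their group in all 7 members: ND array 9 and H_FMG array 3 above, and SMG array 12, H_FMG array 8 and BC array 4 below.

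Under high-fat feeding alone, HFD against ND, 6 of the 7 members rose, with changes between 0.46 and 1.60 on the log2 scale. Over all genes 8.63% passed this comparison and 6.54% passed as higher in HFD (limma, Benjamini-Hochberg adjusted p below 0.05 over 16248 genes). The members' median change was 0.93, beside a median of -0.04 over all genes. The 3 HFD arrays lay wholly above the 3 ND arrays in all 7 members, as they did in 15.7% of all genes. Without ND array 9 the same 6 members passed and the median change was 1.18. The share of all genes in that setting is not given here. With 1 array left out, 368 to 1457 of all genes passed. In whole tissue, more macrophages and more RNA per macrophage cannot be told apart.

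Among the surface receptors, Adgre1 stood at 9.17, 9.49 and 9.28 log2 units in HFD arrays 4, 6 and 7, against 7.50, 7.33 and 8.59 in ND arrays 6, 8 and 9. The HFD arrays were close together, and the lower ND arrays stood more than a log2 unit below ND array 9. Adgre1 rose by 1.51 ± 0.31 (log2 change ± SE, 3 arrays against 3), 2.84-fold, with a limma adjusted p of 0.00661. Csf1r stood at 9.30, 9.45 and 9.20 in the same HFD arrays, against 8.34, 8.31 and 8.49 in the ND arrays. It rose by 0.93 ± 0.19, 1.91-fold (limma adjusted p = 0.00601). Csf1r differed from the other strong responders in ND array 9: there it lay 0.17 above the mean of the other ND arrays, while Adgre1 lay 1.17, Cd68 1.21, Mpeg1 1.14 and Laptm5 0.87 above. Its SD over the ND arrays was 0.10, against 0.68 for Adgre1.

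Of the lysosomal members, Cd68 had the largest change of the 7. It stood at 11.18, 11.33 and 11.03 in HFD arrays 4, 6 and 7, against 9.22, 9.13 and 10.38 in ND arrays 6, 8 and 9, and rose by 1.60 ± 0.29, 3.04-fold (limma adjusted p = 0.00371). Laptm5 stood at 7.12, 7.23 and 7.04 in HFD, against 5.88, 6.01 and 6.81 in ND. It rose by 0.89 ± 0.19 (limma adjusted p = 0.00729). With the arrays of HFD and ND alone in the fit, Laptm5 missed the threshold (adjusted p = 0.0551).

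Of the effector genes, Mpeg1 stood at 9.01, 9.23 and 8.86 in HFD arrays 4, 6 and 7, against 7.50, 7.40 and 8.59 in ND arrays 6, 8 and 9, and rose by 1.20 ± 0.26 (limma adjusted p = 0.00769). Without HFD array 6 its adjusted p was 0.0537. Lyz2 stood at 11.16, 11.03 and 10.95 in HFD, against 10.49, 10.47 and 10.79 in ND, and rose by 0.46 ± 0.14, 1.38-fold (limma adjusted p = 0.044). Of the 6 calls this one was lost in the most settings, 9 of 14: it was lost without ND array 6 or 8 or HFD array 4, 6 or 7 (adjusted p = 0.101, 0.123, 0.136, 0.122 and 0.0722), after quantile normalization, where the change was 0.24 (adjusted p = 0.333), with the array number as a block (0.226), with every probe tested (0.055) and with HFD and ND alone (0.104). Lyz2 has a near-identical neighbour, Lyz1, so what its probe reads is uncertain. The Lyz1 probe had a change of -0.06 ± 0.22 (adjusted p = 0.883).

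Aif1 was the member that did not pass. It stood at 4.81, 4.99 and 5.13 in HFD arrays 4, 6 and 7, against 4.28, 4.63 and 4.70 in ND arrays 6, 8 and 9, a change of 0.44 ± 0.17 (limma adjusted p = 0.103). The groups did not overlap, but the closest HFD and ND arrays were near each other and the HFD and ND values lay within 1 log2 unit of the array medians. With array weights, which lower the weight of arrays far from their group, Aif1 passed (0.47, adjusted p = 0.0441). Adgre1, Csf1r and Cd68 passed in all 14 alternative settings, with changes between 1.27 and 1.90, between 0.80 and 0.99 and between 1.38 and 2.01.

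**Figure D1:**
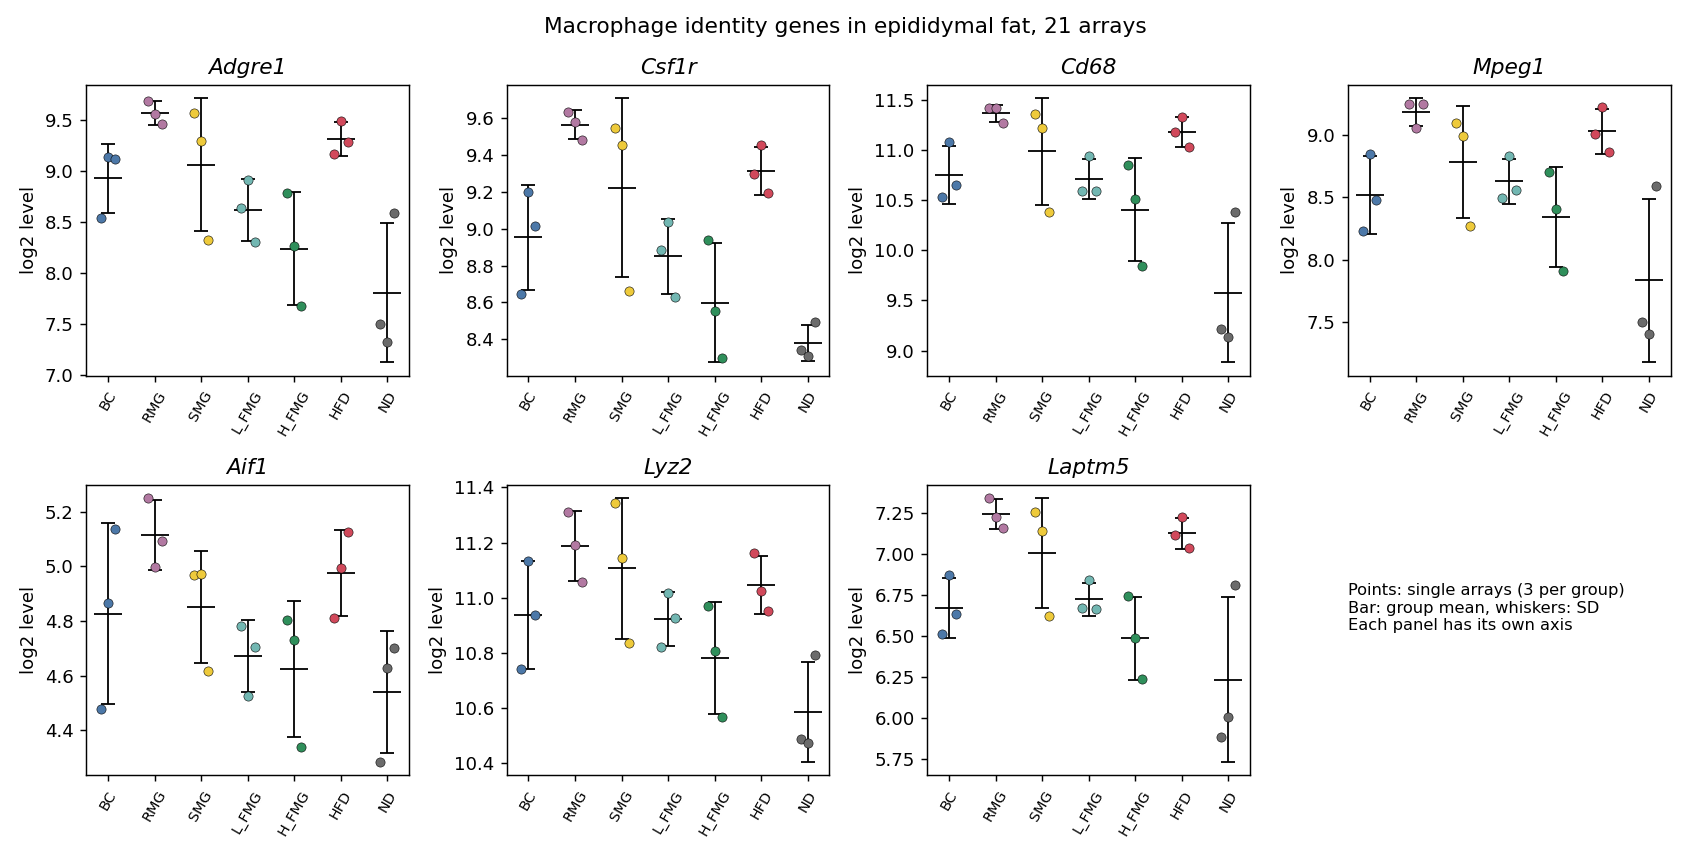
Log2 level of each macrophage identity gene (vertical axis, own scale in each panel) by group (horizontal axis), with a point for each of 3 arrays, a bar for the group mean and whiskers for the SD. RMG is highest and ND lowest in all 7 panels, HFD arrays lie wholly above ND arrays, and 1 high ND array, 1 low SMG array and 1 low H_FMG array are visible.

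The genes that act with the members did not all move with them. The list of CSF1R ligands, cytokine receptors and lineage factors held 18 genes, of which 10 were measured, and 4 rose, 0 fell and 6 did not pass in HFD against ND (median change 0.08, against -0.04 over all genes). Spi1, the gene of PU.1, rose by 1.21 ± 0.24 (limma adjusted p = 0.00494) and Csf2ra, the binding subunit of the GM-CSF receptor, by 1.30 ± 0.25 (adjusted p = 0.00487). Mitf, a transcription factor of pigment cells, osteoclasts and macrophages, rose by 0.98 ± 0.20 (adjusted p = 0.00588). These 3 passed in all 14 alternatives. Runx1, a factor of blood cell formation, rose by 0.832 ± 0.235 (adjusted p = 0.0323) and passed in 6 of 14 alternatives.

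The ligand Csf1 had a change of 0.16 ± 0.10 (limma adjusted p = 0.345), and of -0.005 after quantile normalization. Csf2rb, the shared signalling subunit of the GM-CSF, IL-3 and IL-5 receptors, had a change of -0.17 ± 0.14, the transcription factor gene Cebpb of -0.120 ± 0.125, the oxysterol receptor gene Nr1h3 of -0.17 ± 0.10, Id3 of -0.38 ± 0.16 and Klf4 of -0.01 ± 0.16. Their adjusted p lay between 0.153 and 0.985. Csf1r thus passed while its ligand Csf1 did not, and the difference between the 2 changes was not tested.

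Relatives of the members by protein family were also read. Of 14 relatives 11 were measured, and 1 rose and 0 fell in HFD against ND, with a median change of -0.05. The 1 was Pdgfra, a tyrosine kinase receptor of the same class as Csf1r that marks fibroblasts and fat progenitors, at 0.63 ± 0.14 (limma adjusted p = 0.00851). Cd63, which had been listed with them, is a tetraspanin of lysosomes and no relative of any member by family, and it rose by 0.62 ± 0.18 (adjusted p = 0.0373). Pdgfra lost the call after quantile normalization and without HFD array 6, and Cd63 passed in 6 of 14 alternatives. Of the other receptors of the Csf1r class, Kit had a change of -0.18 ± 0.16, Flt3 of 0.042 ± 0.255 and Pdgfrb of 0.21 ± 0.12. Adgre4, the relative of Adgre1, had a change of 0.41 ± 0.24 (adjusted p = 0.3). The values were 0.22 ± 0.10 for Laptm4a and -0.21 ± 0.13 for Laptm4b, beside 0.89 ± 0.19 for Laptm5. Prf1, the perforin of lymphocytes, stood at -0.05 ± 0.13, Aif1l at -0.26 ± 0.14 and Lamp3 at -0.13 ± 0.15, and none of these passed. Whether a member's change differed from its relative's was not tested.

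**Figure D2:**
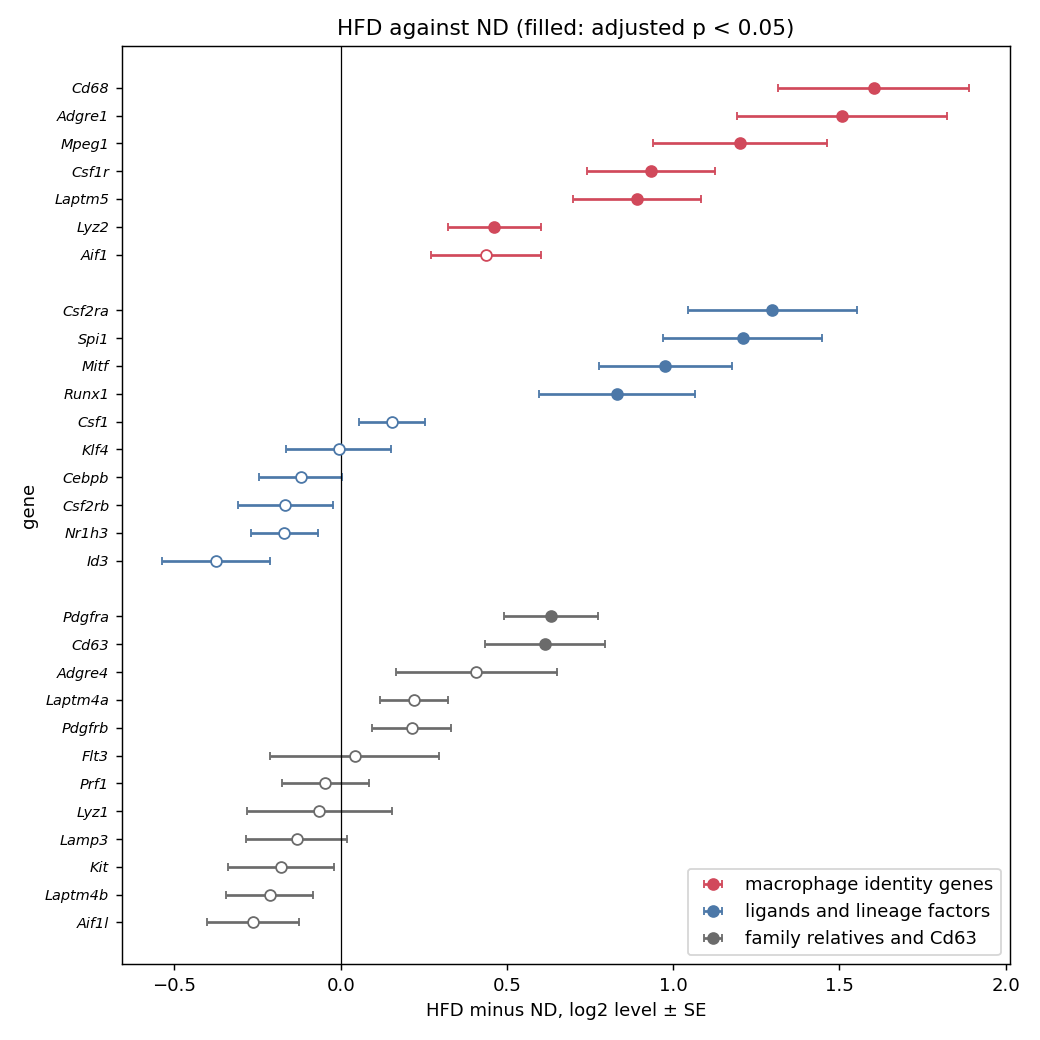
Change in HFD against ND (horizontal axis, log2 level ± SE) for the 7 macrophage identity genes, 10 measured ligands and lineage factors and 11 measured family relatives with Cd63 (vertical axis), with filled points where the adjusted p was below 0.05. Filled points are 6 of 7 members, 4 of 10 ligands and lineage factors and Pdgfra and Cd63, all on the positive side.

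Most other macrophage genes and the shared leukocyte genes went with the members. Of 25 further macrophage genes 18 were measured, and 16 rose and 0 fell in HFD, with a median change of 1.18. The 4 with the smallest p were the immunoglobulin receptor gene Fcgr1, which rose by 1.99 ± 0.31, Ms4a7 by 1.916 ± 0.315, Fcer1g, a signalling chain of Fc receptors, by 1.25 ± 0.21 and the galectin gene Lgals3 by 0.97 ± 0.18 (limma adjusted p between 0.00309 and 0.00394). The macrophage genes that did not pass were Cd163, with a change of -0.244 ± 0.151, and Mertk, with 0.191 ± 0.094. Of 9 measured lysosomal genes 7 rose, with a median of 0.68, among them the lipase gene Lipa by 1.23 ± 0.23, the protease genes Ctsk by 2.01 ± 0.37 and Ctsl by 0.68 ± 0.13, and the proton pump subunit gene Atp6v0d2 by 2.425 ± 0.423. All 9 measured pan-leukocyte genes rose, with a median of 1.21, among them the actin-bundling gene Lcp1 by 1.305 ± 0.23 and the signalling gene Vav1 by 1.21 ± 0.23. Of 7 measured cell division genes 4 rose, among them Aurkb by 0.68 ± 0.19 and Tpx2 by 0.95 ± 0.27, each in 8 of 14 alternatives. Members, macrophage, lysosomal and leukocyte lists were chosen with results of these data known.

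Markers of cells that share single members with macrophages were given beside them, and their part in the result was not tested. Of the 6 measured monocyte markers, 1 rose, Vcan, a matrix proteoglycan gene of monocytes and fibroblasts, by 0.712 ± 0.155 (limma adjusted p = 0.00785), while Ly6c2 had a change of 0.45 ± 0.23 and Chil3 of 0.52 ± 0.27. The call on Vcan was lost without HFD array 6 and with the array number as a block. Of the 8 measured neutrophil markers, which matter for Lyz2, 1 rose, the G-CSF receptor gene Csf3r by 0.69 ± 0.15 (adjusted p = 0.0074, lost with the array number as a block), with S100a8 at 0.966 ± 0.345 and Lcn2 at 1.499 ± 0.582 short of the threshold. S100a9, Retnlg, Ly6g and Mmp9 had changes of -0.292 ± 0.167, -0.417 ± 0.227, -0.403 ± 0.293 and -0.421 ± 0.187, and Cxcr2 of 0.030 ± 0.205. The summed linear level of the neutrophil list was 254 to 289 in HFD arrays and 128 to 189 in ND arrays. Such a sum weighs bright markers most, and Lcn2 averaged 7.02 log2 units in HFD and 5.52 in ND. Of 5 dendritic cell, 6 B cell and 2 eosinophil markers measured 0 passed in either direction, and of 4 T and NK cell markers 1 rose, Il7r by 2.60 ± 0.47. The other T and NK cell markers did not pass, with changes of -0.102 ± 0.206 for Cd8a, -0.301 ± 0.141 for Cd8b1 and 0.252 ± 0.172 for Gzma. Over all genes 6.54% passed as higher and 2.09% as lower. Of 8 mast cell markers 2 rose, Cpa3 by 2.37 ± 0.62 and Mcpt4 by 1.60 ± 0.43. The calls on Cpa3 and Mcpt4 held in 11 of 14 and 8 of 13 alternatives.

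Markers of the fat's own cells were also read in HFD against ND. Over all genes 6.54% passed there as higher and 2.09% as lower. Of 8 adipocyte markers 3 fell, Rbp4 by 0.62 ± 0.16, Plin4 by 0.70 ± 0.21 and Acvr1c by 0.845 ± 0.232, and their summed level was 9298 to 10389 in HFD arrays and 9551 to 11465 in ND arrays. Of 8 endothelial markers 1 fell, Vwf by 0.71 ± 0.12, with sums of 1541 to 1900 in HFD and 1963 to 2465 in ND. Of 10 fibroblast and progenitor markers 5 rose, among them Lum by 1.40 ± 0.26 and Mfap5 by 0.826 ± 0.165, with sums of 7122 to 7703 in HFD and 4548 to 6249 in ND. Of 5 smooth muscle and pericyte markers 2 fell, Myh11 by 0.93 ± 0.21 and Notch3 by 0.40 ± 0.11. Of 8 mesothelial markers 0 passed in either direction. The calls held in 12 of 14 alternatives for Rbp4, in 8 for Plin4 and Acvr1c, in 13 for Myh11 and in 7 for Notch3. Their part in the macrophage result was not tested. In ND array 9, where the members were high, the adipocyte markers averaged 9.23 log2 units, against 9.72 and 9.74 in ND arrays 6 and 8, and the endothelial markers 7.75 against 8.05 in ND array 6 and 8.06 in ND array 8.

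The study asks whether fermented mixed grain acts on diet-induced obesity by dose, and sets it beside the other supplements. None of the 7 members passed in any supplemented group against HFD (limma, adjusted over all genes). The share of all genes that passed was 0.00615% in H_FMG against HFD, which is 1 gene, and 0% in the other 4 comparisons, where unadjusted p was below 0.05 for 841 genes in BC, 458 in RMG, 300 in SMG and 1407 in L_FMG. These 5 comparisons share the 3 HFD arrays. The simulated test recovered 94.8% of genes changed by 1 log2 unit and 33.3% of those changed by 0.5 in H_FMG against HFD. Those shares do not carry over to the members, whose median SD in H_FMG was 0.323 against 0.149 over all genes.

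In H_FMG all 7 members had lower means than in HFD, by 0.27 to 1.07 log2 units, with a median difference of -0.69 beside 0.02 over all genes. Adgre1 stood at 8.78, 8.26 and 7.68 in H_FMG arrays 3, 6 and 8, against 9.17 to 9.49 in HFD, a difference of -1.07 ± 0.31 (limma adjusted p = 0.151). Csf1r stood at 8.94, 8.55 and 8.30 in H_FMG, against 9.20 to 9.45 in HFD, a difference of -0.72 ± 0.19 (adjusted p = 0.135). Cd68 stood at 10.85, 10.52 and 9.84 in H_FMG, against 11.03 to 11.33 in HFD, a difference of -0.78 ± 0.29 (adjusted p = 0.22). H_FMG arrays lay wholly below HFD arrays in 6 of 7 members, all but Lyz2, and in 11.4% of all genes. Unadjusted p was below 0.05 with a lower mean in the same 6 members, and in 8.31% of all genes. Without H_FMG array 8 the median difference was -0.50 and 0 members passed. The differences of Mpeg1, Aif1, Lyz2 and Laptm5 were -0.69 ± 0.26, -0.35 ± 0.17, -0.27 ± 0.14 and -0.64 ± 0.19, with adjusted p between 0.158 and 0.402. The count of members called depended on the arrays used, and so did that of all genes. Without H_FMG array 3 it was 2, Adgre1 and Csf1r (adjusted p = 0.0478 and 0.0385), where 1.58% of all genes passed, and the median difference was -0.87. With array weights it was 3, Adgre1, Csf1r and Laptm5 (0.0258, 0.026 and 0.0235), where 3.48% of all genes passed.

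The genes around the members in H_FMG against HFD were read in the same way. Spi1 had a difference of -0.74 ± 0.24 (limma adjusted p = 0.172), Csf2ra of -0.74 ± 0.25, Mitf of -0.685 ± 0.200 and the ligand Csf1 of -0.19 ± 0.10, and 0 of 10 measured ligands and lineage factors passed. The median difference was -0.81 over the other macrophage genes, -0.76 over the pan-leukocyte genes and -0.43 over the lysosomal genes, with 0 calls in each. The adipocyte markers had a median difference of 0.32 and summed to 10754 to 11377 in H_FMG arrays and 9298 to 10389 in HFD arrays. The endothelial markers had a median of 0.37, with sums of 2079 to 2681 in H_FMG and 1541 to 1900 in HFD, and the fibroblast markers one of -0.48, with sums of 4840 to 6103 in H_FMG and 7122 to 7703 in HFD. These lists also had 0 calls, and their part in the macrophage differences was not tested.

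In L_FMG the 7 means also lay below HFD, by 0.12 to 0.70, with a median difference of -0.40. Adgre1 stood at 8.64, 8.91 and 8.30 in L_FMG arrays 4, 8 and 10, against 9.17 to 9.49 in HFD (difference -0.70 ± 0.31, limma adjusted p = 0.55). Csf1r stood at 8.88, 9.04 and 8.63 in L_FMG, against 9.20 to 9.45 in HFD (difference -0.46 ± 0.19, adjusted p = 0.539). L_FMG arrays lay wholly below HFD in 6 of 7 members, all but Lyz2, where 10.1% of all genes did. The other 5 members had adjusted p between 0.571 and 0.817. After quantile normalization the Lyz2 difference was 0.02.

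Along the dose of fermented grain, 0, 0.3 and 0.9 percent, Csf1r averaged 9.31 ± 0.13 in HFD, 8.85 ± 0.20 in L_FMG and 8.60 ± 0.32 in H_FMG (SD, n = 3 each). Adgre1 averaged 9.31 ± 0.17, 8.62 ± 0.31 and 8.24 ± 0.55 in the same groups. The trend was -0.74 ± 0.21 log2 units per percent for Csf1r (limma adjusted p = 0.203), -1.11 ± 0.34 for Adgre1 (adjusted p = 0.212) and -0.67 ± 0.21 for Laptm5 (adjusted p = 0.215). None of the 7 passed, nor did any other gene, where the share was 0%. With array weights these 3 passed, each with an adjusted p of 0.0435, where 1.37% of all genes did. In H_FMG against L_FMG all 7 members had the lower mean at the higher dose, by 0.05 to 0.38 (median -0.25, -0.42 without H_FMG array 3 and -0.075 without H_FMG array 8), with overlapping arrays in all 7 and 0 members called. Of all genes 0% passed that comparison, and 636 had an unadjusted p below 0.05.

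In BC the members lay 0.11 to 0.51 below HFD (median -0.38, and -0.21 without BC array 4). Adgre1 stood at 8.54, 9.14 and 9.11 in BC arrays 4, 7 and 11, against 9.17 to 9.49 in HFD (difference -0.38 ± 0.31), and Laptm5 averaged 6.67 ± 0.18 in BC and 7.13 ± 0.10 in HFD (difference -0.45 ± 0.19, limma adjusted p = 0.917). BC arrays lay wholly below HFD in 3 of 7 members, Adgre1, Mpeg1 and Laptm5, where 7.35% of all genes did. BC and L_FMG, the bacterium and the fermented grain at the same percent by weight, differed by -0.31 to 0.11 over the members (L_FMG minus BC, median -0.05, and -0.16 without BC array 4), and 0 members passed. In L_FMG against SMG, fermented against steamed grain, the members had lower means by 0.16 to 0.45 (median -0.28, and -0.47 without SMG array 12), and 0 passed. In both comparisons 0% of all genes passed.

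In SMG the difference from HFD lay between -0.25 and 0.06, and 6 of 7 members had the lower mean. Adgre1 stood at 9.57, 9.29 and 8.33 in SMG arrays 5, 8 and 12, against 9.17 to 9.49 in HFD (difference -0.25 ± 0.31, limma adjusted p = 1). Cd68 stood at 11.36, 11.22 and 10.38 in SMG, against 11.03 to 11.33 in HFD. Without SMG array 12 the difference was 0.12 for Adgre1, 0.19 for Csf1r, 0.11 for Cd68, 0.01 for Mpeg1, 0.20 for Lyz2 and 0.07 for Laptm5, and -0.01 for Aif1. In this array the adipocyte markers averaged 9.47 log2 units, against 8.96 and 9.22 in SMG arrays 5 and 8, and their part was not tested.

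RMG had the highest mean of all groups in all 7 members. Adgre1 stood at 9.69, 9.56 and 9.46 in RMG arrays 4, 9 and 10, against 9.17 to 9.49 in HFD, and Csf1r stood at 9.63, 9.58 and 9.48 in RMG, against 9.20 to 9.45 in HFD. The differences from HFD were 0.25 ± 0.31 and 0.25 ± 0.19, and over the members they ran from 0.12 to 0.25, with adjusted p of 1 by limma. The RMG arrays lay wholly above HFD in 1 member, Csf1r, as in 6.35% of all genes. The members also varied least in RMG, with a median SD of 0.11, against 0.13 over all genes.

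**Figure D3:**
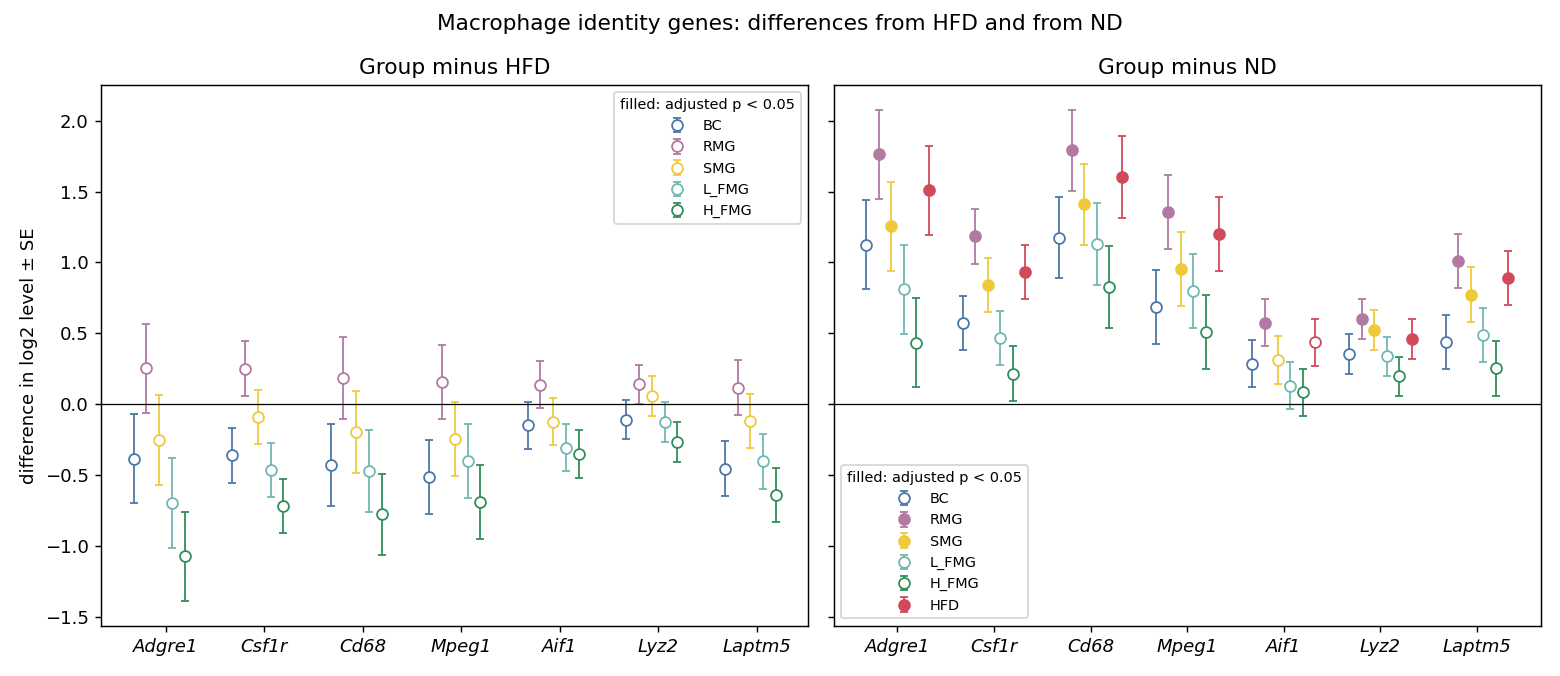
Difference in log2 level ± SE (vertical axis) of each group from HFD (left) and from ND (right) for the 7 macrophage identity genes (horizontal axis), with filled points where the adjusted p was below 0.05. No point is filled on the left, and on the right RMG is filled in 7, HFD in 6 and SMG in 6 genes.

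Set against ND, members were called in HFD, RMG and SMG but not in BC, L_FMG and H_FMG. That split follows the threshold, and the counts in SMG, BC and L_FMG changed when single arrays were left out. In RMG all 7 members rose, by 0.57 to 1.79, where 14.8% of all genes passed and 10.2% as higher. Cd68 rose by 1.79 ± 0.29, 3.46-fold (limma adjusted p = 0.000431), Csf1r by 1.18 ± 0.19 (adjusted p = 0.000445) and Aif1 by 0.57 ± 0.17 (adjusted p = 0.0232). Aif1 lost the call without ND array 6 or RMG array 4 or 10 (adjusted p = 0.101, 0.0986 and 0.0583) and with the array number as a block (0.108), and Lyz2 after quantile normalization (0.0846). In SMG 6 of 7 rose, all but Aif1, where 5.83% of all genes passed and 4.74% as higher. Adgre1 rose by 1.26 ± 0.31 (adjusted p = 0.0246) and Csf1r by 0.84 ± 0.19 (adjusted p = 0.0163). SMG arrays lay wholly above ND arrays in 2 members, Csf1r and Lyz2, as in 11.2% of all genes. The count of 6 was 0 without ND array 8, SMG array 5 or SMG array 8, 2 without ND array 6, and 0 with SMG and ND alone in the fit. It was 2 after quantile normalization and 3 with the array number as a block. Without ND array 9 all 7 members passed in RMG (median 1.30) and 6 in SMG (median 1.06), and without SMG array 12 the count in SMG was 6 (median 1.12). The shares of all genes in these changed settings are not given here, so these counts cannot be set against the whole table.

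In BC, L_FMG and H_FMG 0 members passed against ND, where the share of all genes was 0.111%, 0.00615% and 0.00615%. All 7 means lay above ND in each, with median differences of 0.57, 0.49 and 0.25 (0.73 in BC without BC array 4, with 0 called). Cd68 had the smallest p of the 7 in each, with differences of 1.18 ± 0.29 in BC (limma adjusted p = 0.0818), 1.13 ± 0.29 in L_FMG (adjusted p = 0.157) and 0.825 ± 0.288 in H_FMG (adjusted p = 0.498). The count in BC and L_FMG turned on ND array 9. Without it 4 members passed in BC, Adgre1, Cd68, Mpeg1 and Laptm5 (adjusted p between 0.00469 and 0.0206), where 2.29% of all genes did. The same 4 passed in L_FMG (0.00743 to 0.0449), where 1.69% of all genes did, with a median difference of 0.78. In H_FMG 0 passed without ND array 9, where 0.135% of all genes did, with a median difference of 0.54. That median was 0.38 without H_FMG array 8 and 0.13 without H_FMG array 3. These 6 comparisons share the 3 ND arrays.

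The order of the groups was nearly the same in every member. From the highest mean to the lowest it ran RMG, HFD, SMG, BC, L_FMG, H_FMG and ND in Adgre1, Csf1r, Cd68 and Aif1. In Mpeg1 and Laptm5 L_FMG and BC changed places, and in Lyz2 SMG and HFD did. In none of the 7 members did neighbours in the order differ by limma, with adjusted p of 0.498 or more, taken from the 21 pairs of groups. The widest step was between H_FMG and ND in Cd68, 0.825 log2 units, where the SDs were 0.51 in H_FMG and 0.70 in ND. The F test over the 6 high-fat groups called 0 members and 8 of all genes (0.0492%), with Csf1r at an adjusted p of 0.0838 and the other 6 at 0.155 or more. Without SMG array 12 this test called 3 members, where 4.04% of all genes passed, and without H_FMG array 3 it called 1 (0.923%). With array weights it called 5 (8.84%), and without H_FMG array 8 or BC array 4 it called 0.

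RMG and H_FMG, at the ends of the order among the high-fat groups in all 7 members, differed in 4 of them, all higher in RMG, where 7.19% of all genes passed. Adgre1 stood at 9.69, 9.56 and 9.46 in RMG arrays 4, 9 and 10, against 8.78, 8.26 and 7.68 in H_FMG arrays 3, 6 and 8, a difference of 1.33 ± 0.31, 2.51-fold (limma adjusted p = 0.0178). The difference was 0.97 ± 0.19 for Csf1r (adjusted p = 0.0087), 0.96 ± 0.29 for Cd68 (adjusted p = 0.0467) and 0.76 ± 0.19 for Laptm5 (adjusted p = 0.023). Mpeg1, at 0.85 ± 0.26, Aif1, at 0.49 ± 0.17, and Lyz2, at 0.41 ± 0.14, missed the threshold (adjusted p = 0.0536, 0.083 and 0.0878). The count rested on single arrays: it was 0 without RMG array 4 (0.837% of all genes) or H_FMG array 8 (0.197%), 1 without RMG array 9 or H_FMG array 6 (2.43% in each), 2 without RMG array 10 (3.54%) and 6 without H_FMG array 3 (8.73%). With array weights all 7 passed, where 14.5% of all genes did. This comparison was added after its values were seen. In the other 6 pairs of supplemented groups not given above, 0 members passed, and the share of all genes was 0.314% in RMG against L_FMG and 0% in the rest.

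The members varied together from array to array as well as from group to group. Over 21 arrays the 21 pairs of members had Pearson correlations between 0.75 and 0.98 (median 0.93), lowest for Cd68 with Aif1 and highest for Cd68 with Mpeg1. With each group's mean taken away the range was 0.52 to 0.98 (median 0.85), with the same extreme pairs. These are descriptions: the probes share the arrays and their scaling. SMG array 12, H_FMG array 8, BC array 4 and ND array 6 lay below their group mean in all 7 members, and ND array 9, SMG arrays 5 and 8, BC array 7, H_FMG array 3 and RMG array 4 above it in all 7. The spread of the members within a group was wide in ND and SMG, with median SDs of 0.51 and 0.45 against 0.19 and 0.14 over all genes, and narrow in HFD, with 0.15 against 0.12. The mean over the 7 members ran from 8.24 to 9.02 log2 units in SMG and from 7.84 to 8.54 in H_FMG, while the arrays of HFD lay between 8.78 and 8.96 and those of ND between 7.60 and 8.34. ND array 9, at 8.34, was above H_FMG arrays 6 and 8, BC array 4 and SMG array 12.

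**Figure D4:**
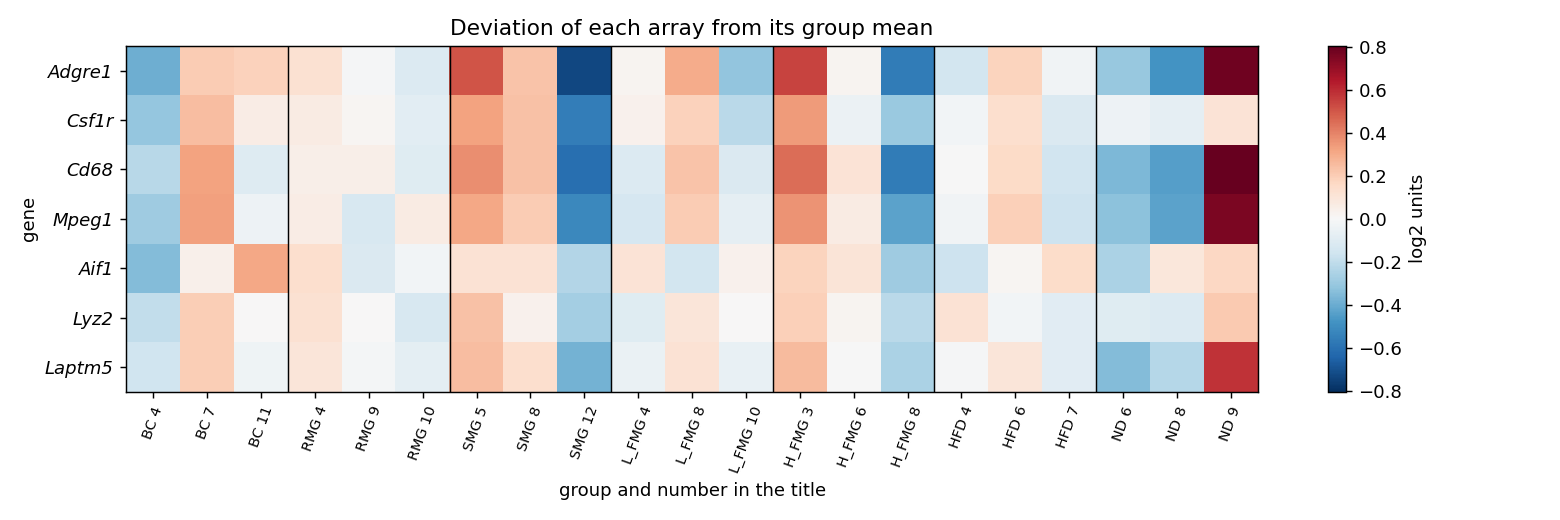
Deviation of each array from the mean of its own group in log2 units (colour, red above and blue below) for the 7 macrophage identity genes (vertical axis) in 21 arrays (horizontal axis, group and number). ND array 9 is red, and SMG array 12, H_FMG array 8, BC array 4 and ND array 6 are blue, in all 7 genes. Csf1r is pale in ND array 9.

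Members, predicted gene models and Riken clone names were left out of the ranking of genes by likeness. The 10 genes most like the members were those with the highest Pearson correlation with the members' mean over the 21 arrays. They were Blnk, Lgmn, Dock2, Lcp1, B4galt5, Daglb, Gas2l3, Rab7b, Cd180 and Spi1, with correlations between 0.989 and 0.993 and Spearman's rho between 0.961 and 0.991. Without ND arrays 6 and 8, the 2 farthest from the median, the correlations lay between 0.982 and 0.991. With group means taken away they lay between 0.969 and 0.986, and 7 of the 10 stayed among the first 10, as did 7 after quantile normalization. Spi1 and Lcp1 are the 2 that also stood on the gene lists used here. These values describe 21 arrays that share their scaling.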

How the data were processed

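The deposited values were log2 levels, 1 per probe and array, for 21 arrays. Per the labels' protocols, Trizol was used for RNA extraction, and fragmented sense cDNA carried a biotin label. The summarisation and normalization that the authors applied to the probes before deposit are not stated in the labels or the file, and the log base was taken from the values (0.84 to 12.7). The table held 24292 probes, of which 24291 were complete. By the platform annotation 17067 had 1 gene symbol, 1139 several and 6085 none. Symbols were updated through Entrez identifiers (116 unmatched), and the brightest single-symbol probe stood for each of 16248 genes. Genes outside the table are not analysed here. 0 value columns were left unmatched.

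Fits used limma 3.58.1 (R 4.3.3) on all 21 arrays together, each of the 7 groups having its own mean, with variances moderated along an intensity trend and no further normalization. Two-sided p-values were adjusted over all genes within a comparison by the Benjamini-Hochberg method, with a threshold of 0.05. Depth has no counterpart on arrays, and 3 arrays per group limit the precision. No batch or scan date is given in the sources used here.

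The 7 members and all gene lists were chosen with earlier results of these data known. Named genes are the members, the measured ligands, lineage factors and family relatives, up to 4 genes with the smallest p in HFD against ND from each other list, and the 10 genes most like the members; the text gives a selection. On simulated data with 16248 genes, 200 of them changed, the fit for HFD against ND found 26.2 percent of the changes of 0.5 log2 units, 94.5 percent of those of 1 and 96.8 percent of those of 1.5, with 8 false calls. These shares do not carry over to the members, whose median SD in ND was 0.505 against 0.191 over all genes. Alternatives were quantile normalization, every probe, dim genes left out, the compared arrays alone, array weights, no variance trend, the mean of a gene's probes, the number in the title as a block, and each array left out. RMG against H_FMG was added, with the same alternatives, after the data were seen. The labels do not say whether equal numbers pair the arrays. Of 18 same-numbered pairs from different groups 2 had a correlation of deviations over 0.1, against 46 of 171 pairs with other numbers. Such correlations cannot settle what the numbers stand for.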

Additional observations from a re-analysis of the deposited data

How the results depend on the processing

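The counts of members called in HFD against ND (4 to 6 with 1 array left out) and in RMG against ND (6 to 7) stayed within 1.5 times of those reported, in every setting. The 4 comparisons with HFD other than H_FMG, and H_FMG against L_FMG, L_FMG against SMG and L_FMG against BC, called 0 members in every setting. RMG against H_FMG, chosen after seeing the data, called 4; it called 7 with array weights, 2 with the replicate block, and 0 to 6 with 1 array left out. With array weights the count was 3 in H_FMG against HFD, 6 in BC against ND, 4 in L_FMG against ND, 1 in H_FMG against ND, 3 in the dose trend and 5 in the F test. For BC, L_FMG and H_FMG against ND the share of all genes with array weights is not given here. Array weights also raised the count over all genes in HFD against ND, from 1403 to 2432. For SMG against ND it was 2 after quantile normalization, 3 with the replicate block, 0 with the 2 groups alone, and 0 to 6 with 1 array left out. With 1 array left out it was 0 to 2 in H_FMG against HFD, 0 to 4 in BC against ND and in L_FMG against ND, 0 in the trend and 0 to 3 in the F test. The replicate block called 1 member in the F test and 5 in HFD against ND. Whether equal numbers pair the arrays is not stated in the labels, and the block leaves 5 residual degrees of freedom against 14. All genes called in HFD against ND, 1403, became 2432 with array weights, 524 with the replicate block, 774 with the 2 groups alone and 368 to 1457 with 1 array left out.

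No member called in a comparison changed direction in any setting. Changes that were not called did so as follows, and the cause was not tested. After quantile normalization HFD minus ND was -0.005 for Csf1 and 0.021 for Lamp3, and L_FMG minus HFD was 0.024 for Lyz2. With the replicate block SMG minus HFD was 0.247 for Adgre1, 0.195 for Csf1r, 0.260 for Cd68, 0.142 for Mpeg1, 0.244 for Aif1 and 0.103 for Laptm5, HFD minus ND was -0.059 for Flt3, and BC minus ND was -0.097 for Aif1. With array weights SMG minus HFD was 0.082 for Csf1r. With 1 array left out SMG minus HFD ran from -0.504 to 0.116 for Adgre1, -0.255 to 0.188 for Csf1r, -0.380 to 0.111 for Cd68, -0.399 to 0.014 for Mpeg1, -0.057 to 0.196 for Lyz2 and -0.244 to 0.072 for Laptm5. Likewise BC minus HFD ran from -0.304 to 0.025 and H_FMG minus ND from -0.042 to 0.227 for Aif1, and HFD minus ND from -0.099 to 0.071 for Klf4, -0.078 to 0.185 for Flt3, -0.121 to 0.033 for Prf1 and -0.206 to 0.199 for Lyz1.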
